A study of Homo sapiens with 4 samples.

Results

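The 44 genes described here encode proteins of the centromere, the kinetochore, the spindle checkpoint and the machinery of anaphase, together with the mitotic kinases and the proliferation marker MKI67. They were chosen by name from a table of 58735 genes, and all 44 were found in it. RNA had been sequenced from 4 populations of the cell line MDA-MB-231, which derives from a human breast tumour negative for the usual receptors (triple-negative). The cells carried a TetOn-H2BeGFP reporter, a histone fused to a green fluorescent protein under a doxycycline-driven promoter. All 4 populations shared the same handling, in which doxycycline at 5 μg/ml induced the reporter for 3 days, the cells were stained with Claret and Violet dyes, and the labels were diluted over a chase of 12 days. By their titles, the Claret, eGFP and Violet libraries came from slow-cycling cells positive for that label, and the other library is Bulk. Slow-cycling cells were those that had kept the most of a label (top 1% each). The sort without a fluorescence gate is taken here to be Bulk, although the treatment field gives it to another library, as described below.

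Below, 4 read counts or FPKM values of a gene stand in the order Bulk, Claret, eGFP, Violet, and 3 log2 ratios stand in the order Claret, eGFP, Violet, each against Bulk on TMM-scaled CPM. Each population gave 1 library, so no difference below has a replicate check, and the 95% intervals cover only the counting error of reads. Libraries are named by their titles. The treatment field of every sample names another sort: it calls the library titled Bulk Claret, the library titled Claret eGFP, the library titled eGFP Violet and the library titled Violet un-gated. The columns of the deposited count and FPKM tables are named for the same sorts as the titles. All values below belong to the libraries as titled. Libraries held 15508179 to 16976909 reads. Mitochondrial genes took 4.18% of the reads in Bulk and 5.06% to 5.48% in the slow-cycling libraries, and the part of this difference in the results was not tested. The 6 markers of mesenchymal breast cancer lines (among them VIM and CD44) summed to 3616 to 3951 CPM, with the lowest sum in Violet. CPM are reads of a gene scaled to a common library size. Within this sum VIM lay above Bulk, at log2 ratios of 0.46, 0.44 and 0.35, and CAV1 below it, at -0.85, -0.95 and -0.77. Of the luminal markers, the estrogen receptor gene ESR1 had 3 to 7 reads, PGR had 0 and the E-cadherin gene CDH1 0 to 3, while FOXA1 had 235 to 271, GATA3 74 to 95 and ERBB2 1415 to 1542. The 7 luminal markers summed to 112 to 117 CPM, most of it ERBB2. Of the leukocyte markers, CD3E was at 0 reads in every library and PTPRC had 0 to 2 reads. The 4 fibroblast markers summed to 30.8 CPM in Bulk and 46.8 to 49.3 CPM in the slow-cycling libraries, with COL1A2 at 0 in all and DCN at 0 in all but Claret (2 reads). PDGFRB had 201, 431, 421 and 426 reads and was called higher in eGFP and Violet, and COL1A1 had 284, 361, 363 and 332 reads. The 3 endothelial markers summed to 3.998 CPM in Bulk and 4.72 to 7.18 CPM in the others, with VWF at 4 reads in Bulk and 19 to 24 in them, and the part of these markers in the results was not tested.

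The kinetochore is the protein plate that assembles on each centromere and binds spindle microtubules. Its inner layer sits on nucleosomes holding the histone variant CENPA, and its outer layer, built around the NDC80 complex, holds the microtubule. Until every chromosome is attached, the spindle checkpoint keeps CDC20 from activating the anaphase-promoting complex (APC/C), a ubiquitin ligase that then marks securin for destruction and frees separase to cut cohesin. Most mRNAs of this machinery accumulate late in the cell cycle, in G2 and mitosis, and are low in resting cells.

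The members took 81453 reads in Bulk, 0.508% of the library. In the slow-cycling libraries they took 21709, 17525 and 19581 reads, which is 0.128%, 0.110% and 0.126%. A gene is called here when its log2 ratio between libraries is at least 1 in size, that is, 2-fold. Of the 44 members, 38 were at least 2-fold lower than Bulk in Claret (6.72% of the 14585 genes kept were called lower in that comparison), 38 in eGFP (background 7.64%) and 39 in Violet (background 6.92%). The same 38 genes were called lower in all 3, against 4.93% of all genes kept. No member was called higher, while 11.3% of all genes kept were called higher in the first comparison, 12% in the second and 11.7% in the last. The median log2 ratio of the members was -2.22, -2.48 and -2.27, while the medians over all genes kept were -0.01, -0.01 and 0.01. With groups taken from the treatment field in place of the titles and column names, 0 members were called lower in each comparison and the median for Claret against Bulk was 2.27. The 3 comparisons share the Bulk library, so they do not give independent evidence of the direction. In RNA from sorted populations, fewer cells in mitosis and less of an mRNA per cell cannot be told apart. At least 4-fold lower levels in all 3 libraries were seen for 25 members, against 1.01% of all genes kept. Of these 25 members, 1, ZWINT, was lower by a log2 ratio of at least 3 in all 3. The 5 members called in no library were MIS12, SKA2, BUB3, MAD1L1 and FZR1, and CENPH was called in Violet alone.

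**Figure D1:**
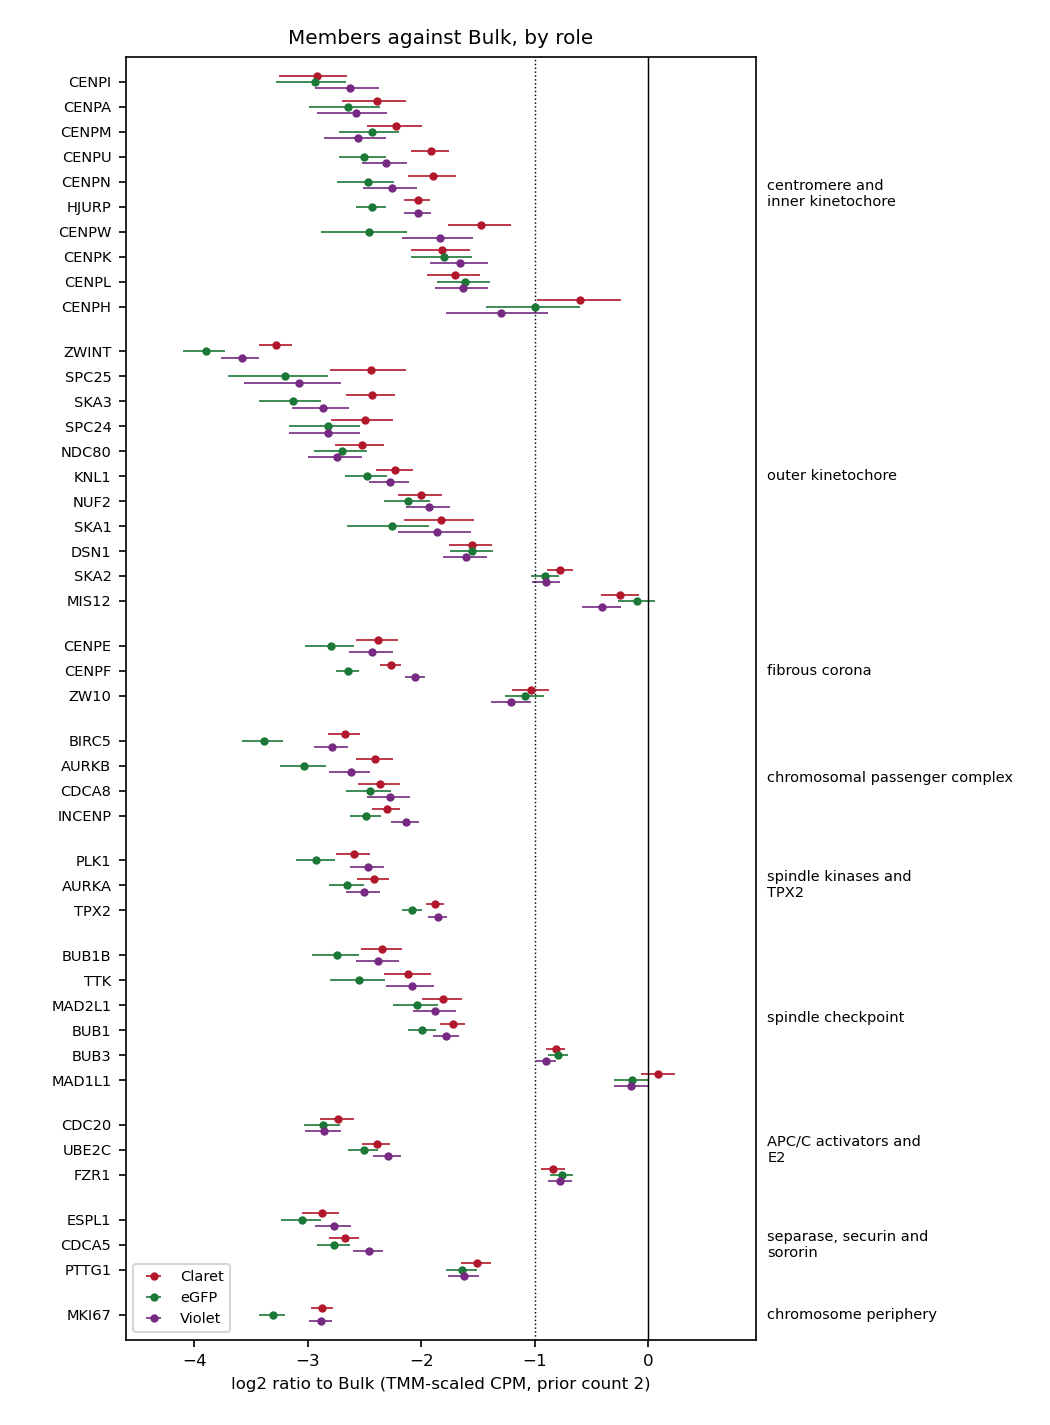
Log2 ratio to Bulk (x axis, TMM-scaled CPM) of each of the 44 members (y axis), grouped by role. Points are the Claret, eGFP and Violet libraries, bars are exact 95% intervals of the read ratio (counting error only), the solid line is no difference and the dotted line is 2-fold lower. ZWINT lies farthest left, and MAD1L1, MIS12, BUB3, SKA2 and FZR1 lie right of the dotted line in every library, as CENPH does in Claret and eGFP.

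The centromere and inner kinetochore group held 10 members, of which 9 were called lower in Claret and eGFP and 10 in Violet, with medians of -1.90, -2.45 and -2.14. CENPA (ENSG00000115163, chromosome 2, 26764289 to 26801067), the histone H3 variant that marks centromeres, had 631, 128, 100 and 104 reads. Its log2 ratio was -2.39 (95% interval -2.70 to -2.13), -2.65 (-2.99 to -2.36) and -2.58 (-2.91 to -2.30). HJURP (ENSG00000123485, chromosome 2, 233833416 to 233854566), the chaperone that deposits CENPA, had 2985, 785, 555 and 728 reads, with ratios of -2.03, -2.44 and -2.03. All 3 slow-cycling libraries were far below Bulk in both genes. CENPI (ENSG00000102384, chromosome X, 101098218 to 101163681), a subunit of the constitutive centromere network, was the lowest of the group, with 758, 106, 98 and 121 reads. Its log2 ratio was -2.92, -2.94 and -2.63.

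CENPH (ENSG00000153044, chromosome 5, 69189548 to 69210357), which acts in the same subcomplex as CENPI and CENPK, was the highest of the group and the member with the fewest reads in Bulk. It had 150, 106, 75 and 60 reads. Its log2 ratio was -0.60 (-0.98 to -0.24), -0.99 (-1.43 to -0.60) and -1.29 (-1.78 to -0.88), so that the intervals in eGFP and Violet reached both sides of 2-fold. CENPK itself was at -1.81, -1.80 and -1.65. CENPK and the other 5 members of the group, CENPL, CENPM, CENPN, CENPU and CENPW, had between 397 and 1283 reads in Bulk and between 71 and 365 in the slow-cycling libraries.

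The outer kinetochore group held 11 members, and 9 were called lower in each library, with medians of -2.23, -2.47 and -2.27. ZWINT (ENSG00000122952, chromosome 10, 56357228 to 56361275), which binds KNL1 and helps to recruit the ZW10 complex, had the lowest ratios of all members. It had 3869, 429, 260 and 321 reads, so Bulk was 9.68-fold above Claret and 14.9-fold above eGFP. NDC80 (ENSG00000080986, chromosome 18, 2571511 to 2616635), the microtubule-binding subunit of its complex, had 1141, 212, 176 and 169 reads. Its log2 ratio was -2.52 (-2.75 to -2.32), -2.70 (-2.95 to -2.48) and -2.74 (-2.996 to -2.52). The other subunits of the NDC80 complex were also called in each library. NUF2, the partner of NDC80, was at -2.002, -2.12 and -1.93, SPC24 at -2.50, -2.82 and -2.82, and SPC25 at -2.44, -3.20 and -3.07. KNL1, the scaffold that docks the BUB proteins, was at -2.23, -2.47 and -2.27.

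The MIS12 complex links the inner and the outer layer, and 2 of its subunits are members. MIS12 (ENSG00000167842, chromosome 17, 5486285 to 5490814) had 624, 567, 587 and 469 reads. Its log2 ratio was -0.25 (-0.41 to -0.08), -0.10 (-0.27 to 0.06) and -0.41 (-0.59 to -0.24), so the eGFP library could not be told from Bulk at this depth. DSN1, another subunit of that complex, was called in all 3, at -1.55, -1.55 and -1.60. The SKA complex, which keeps kinetochores on shortening microtubules, was also uneven. SKA1 (ENSG00000154839, chromosome 18, 50374995 to 50394173) had 382, 115, 79 and 104 reads. SKA3 was at -2.43, -3.13 and -2.87. SKA2 (ENSG00000182628, chromosome 17, 59109951 to 59155269) had 1588, 999, 854 and 852 reads, with ratios of -0.78 (-0.89 to -0.66), -0.91 (-1.03 to -0.79) and -0.90 (-1.02 to -0.78). Its values lay below Bulk in each library, short of 2-fold.

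The fibrous corona, which extends from unattached kinetochores, was represented by 3 members, all called in each library. CENPE (ENSG00000138778, chromosome 4, 103105806 to 103198409), a kinesin that carries chromosomes to the spindle equator, had 1439, 296, 208 and 265 reads, with ratios of -2.38, -2.79 and -2.43. CENPF was at -2.27, -2.64 and -2.05. ZW10 (ENSG00000086827, chromosome 11, 113733187 to 113773811), which recruits dynein to kinetochores and also works in membrane traffic outside mitosis, lay just past 2-fold. It had 856, 450, 406 and 370 reads, with ratios of -1.03 (-1.20 to -0.87), -1.09 (-1.26 to -0.92) and -1.20 (-1.39 to -1.03). With a filter at a mean of 10 CPM and on the scale log2(FPKM + 1), ZW10 was no longer called in all 3 libraries.

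The chromosomal passenger complex corrects wrong attachments, and all 4 of its members were called in each library. AURKB (ENSG00000178999, chromosome 17, 8204733 to 8210600), its kinase, had 1826, 370, 224 and 295 reads, with ratios of -2.40 (-2.58 to -2.25), -3.03 (-3.25 to -2.84) and -2.62 (-2.81 to -2.45). BIRC5 (ENSG00000089685, chromosome 17, 78214186 to 78225636), which encodes survivin, had 2841, 478, 272 and 410 reads. Bulk exceeded eGFP 10.5-fold in BIRC5. INCENP (ENSG00000149503, chromosome 11, 62123973 to 62153163), the scaffold, had 2895, 630, 519 and 656 reads, with ratios of -2.30, -2.49 and -2.14, the highest mean of the complex although CDCA8 lay above it in eGFP. CDCA8, which encodes borealin, was at -2.36, -2.45 and -2.28.

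The spindle kinases and TPX2 were called in each library as well. PLK1 (ENSG00000166851, chromosome 16, 23677656 to 23690367), which drives mitotic entry and spindle formation, had 2456, 437, 325 and 441 reads. Its log2 ratio was -2.59, -2.92 and -2.47. AURKA (ENSG00000087586, chromosome 20, 56369389 to 56392337), the kinase of the spindle poles, had 2560, 515, 410 and 449 reads. TPX2 (ENSG00000088325, chromosome 20, 31739271 to 31801805), which activates AURKA on the spindle, kept more of its Bulk level, with 5524, 1617, 1320 and 1525 reads and ratios of -1.88, -2.08 and -1.85. MKI67 (ENSG00000148773, chromosome 10, 128096659 to 128126385), which coats mitotic chromosomes and is the Ki-67 antigen of pathology, was at 34.1 FPKM in Bulk (a read count per gene length and library size) and 4.58, 3.37 and 4.45 FPKM in Claret, eGFP and Violet.

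Of the 6 spindle checkpoint members, 4 were called in each library and 2 in none. BUB1B (ENSG00000156970, chromosome 15, 40161023 to 40221136), which encodes the checkpoint protein BUBR1, had 1447, 306, 217 and 277 reads, with ratios of -2.34 (-2.53 to -2.17), -2.74 (-2.96 to -2.54) and -2.38 (-2.57 to -2.20). MAD2L1 (ENSG00000164109, chromosome 4, 120055608 to 120067074), the protein that seizes CDC20, had 1110, 340, 271 and 301 reads. The kinase TTK, which starts checkpoint signalling, was at -2.11, -2.54 and -2.08, and BUB1, another checkpoint kinase, at -1.72, -1.99 and -1.78. BUB3 and MAD1L1 differed from these 4. BUB3 (ENSG00000154473, chromosome 10, 123154277 to 123170467), the adaptor that brings BUB1 and BUBR1 to kinetochores, had 3011, 1843, 1753 and 1610 reads, with ratios of -0.82 (-0.90 to -0.73), -0.79 (-0.88 to -0.71) and -0.90 (-0.99 to -0.81). MAD1L1 (ENSG00000002822, chromosome 7, 1815793 to 2233243), the partner that loads MAD2L1 and that sits at nuclear pores between divisions, had 711, 814, 648 and 641 reads. Its ratio was 0.09 (-0.06 to 0.23) in Claret and -0.15 (-0.30 to 0.01) in both eGFP and Violet. These intervals all span 0, and Claret was the only library in which any member lay above Bulk.

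The APC/C has 2 activating subunits, which differed in these libraries. CDC20 (ENSG00000117399, chromosome 1, 43358955 to 43363203), the activator of metaphase, had 2707, 437, 374 and 372 reads, with ratios of -2.73 (-2.89 to -2.59), -2.86 (-3.03 to -2.71) and -2.86 (-3.02 to -2.71). FZR1 (ENSG00000105325, chromosome 19, 3506273 to 3538330), the activator of late mitosis and G1, had 2039, 1230, 1212 and 1188 reads, with ratios of -0.84 (-0.94 to -0.73), -0.76 (-0.87 to -0.66) and -0.78 (-0.88 to -0.67). Both were below Bulk, but CDC20 was past 2-fold and FZR1 was not. UBE2C, the ubiquitin-conjugating enzyme that starts chains on APC/C substrates, was at -2.39, -2.50 and -2.29. It was the most abundant member per length in Bulk, at 156 FPKM.

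At the step that separates sister chromatids, all 3 members were called in each library. ESPL1 (ENSG00000135476, chromosome 12, 53268299 to 53293643), which encodes separase, had 2438, 356, 295 and 356 reads, with ratios of -2.88, -3.05 and -2.77. PTTG1 (ENSG00000164611, chromosome 5, 160421822 to 160428744), which encodes its inhibitor securin, had 1750, 660, 565 and 566 reads, with ratios of -1.51, -1.64 and -1.62. CDCA5, which encodes sororin, the protein that protects cohesin from release, was at -2.67, -2.77 and -2.46.

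**Figure D2:**
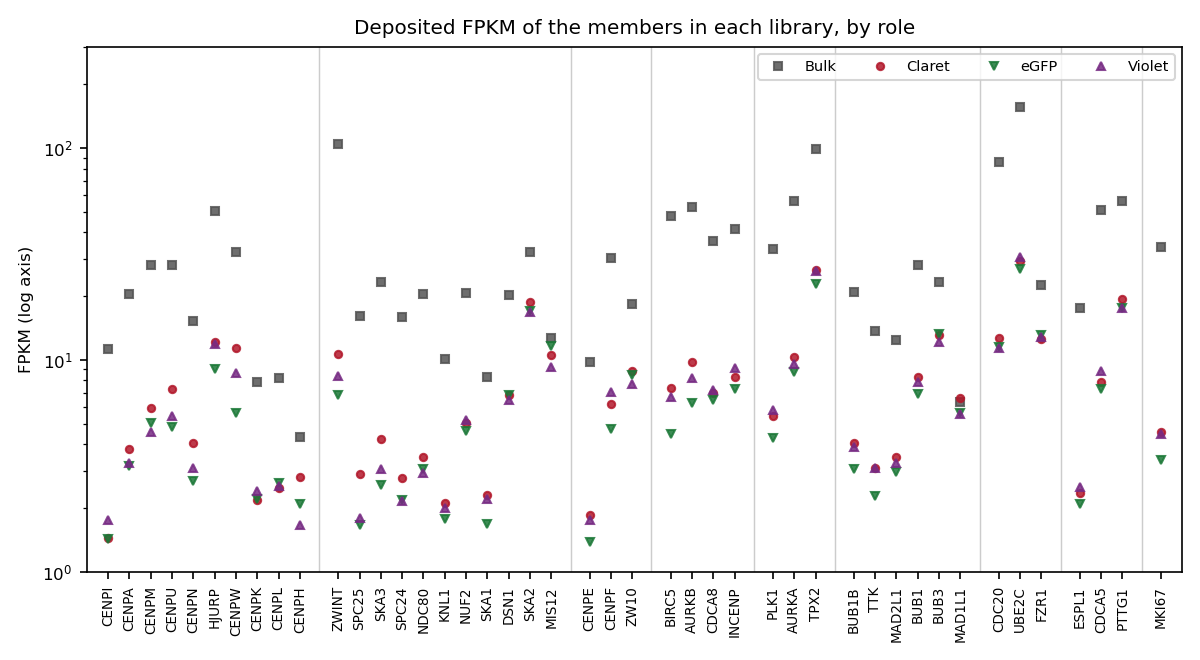
Deposited FPKM (y axis, log axis) of the 44 members (x axis, in the same role order as the ratios) in Bulk, Claret, eGFP and Violet, 1 point per library. Bulk lies above the other libraries for 43 members, and MAD1L1, at 6.33 FPKM in Bulk and 5.52 to 6.63 FPKM in the others, is the exception.

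Ratios of 2 genes within a library do not depend on how libraries are scaled, and 10 pairs of members with linked roles were compared with Bulk. By FPKM, CDC20 was 3.78 times FZR1 in Bulk, 1.01 times in Claret, 0.879 times in eGFP and 0.891 times in Violet. The reads of CDC20 relative to FZR1 differed from Bulk by a log2 value of -1.90 (-2.08 to -1.72), -2.10 (-2.30 to -1.92) and -2.08 (-2.28 to -1.89). MAD2L1 was 1.96 times MAD1L1 in Bulk and 0.525 to 0.591 times in the slow-cycling libraries, and BUB1B was 0.891 times BUB3 in Bulk and 0.230 to 0.319 times in them. NDC80 relative to MIS12 moved most, by -2.29 (-2.56 to -2.02), -2.61 (-2.90 to -2.32) and -2.34 (-2.64 to -2.05). Securin and separase were both below Bulk, separase by more, so the ratio of securin to separase was higher than in Bulk. PTTG1 was 3.17 times ESPL1 in Bulk, 8.19 times in Claret, 8.46 times in eGFP and 7.02 times in Violet. The log2 change was 1.37 (1.16 to 1.58), 1.42 (1.19 to 1.64) and 1.15 (0.93 to 1.36). CENPE against ZW10 changed by -1.35, -1.71 and -1.23, and SKA1 against SKA2 by -1.06, -1.38 and -0.98.

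The other 3 pairs changed by less than 1 on the log2 scale in every library. AURKA against AURKB changed by -0.01 (-0.23 to 0.21), 0.38 (0.13 to 0.64) and 0.12 (-0.11 to 0.35). AURKB against INCENP changed by -0.10 (-0.31 to 0.10), -0.55 (-0.80 to -0.30) and -0.49 (-0.71 to -0.27). CENPA against its chaperone HJURP changed by -0.37 (-0.68 to -0.07), -0.23 (-0.58 to 0.11) and -0.57 (-0.90 to -0.24). Where an interval spans 0, the change was not detectable at this depth.

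**Figure D3:**
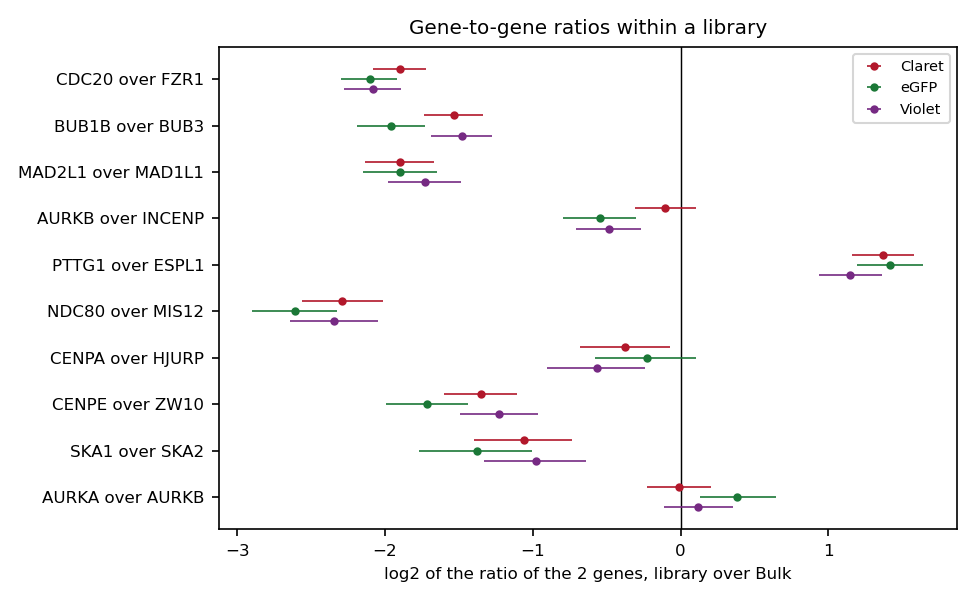
Log2 change of the read ratio of 2 genes, library over Bulk (x axis), for 10 pairs (y axis) in Claret, eGFP and Violet, with exact conditional 95% intervals that cover counting error only. PTTG1 over ESPL1 lies above 0 in all 3 libraries, and NDC80 over MIS12 lies lowest, between -2.29 and -2.61.

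The make-up of 4 complexes was read as shares of FPKM. In the NDC80 complex the 4 subunits held 21.9% to 28.2% each of their summed 73.1 FPKM in Bulk. In the slow-cycling libraries NUF2 held 35.7% to 43.0% of sums of 11.5 to 14.2 FPKM, and SPC25 held 14.4% to 20.3%. In the SKA complex SKA2 held 50.7% of the sum in Bulk, against 74.2% (Claret), 80.01% (eGFP) and 76.3% (Violet). In the chromosomal passenger complex the 4 shares lay between 20.4% and 29.4% in Bulk and between 18.3% and 30.1% in the slow-cycling libraries, while the sum was 178 FPKM in Bulk and 24.4 to 32.4 FPKM in the others. Among the 4 proteins of the mitotic checkpoint complex, which holds CDC20 in check, CDC20 held 60.2% in Bulk and 37.2% to 38.0% in the slow-cycling libraries. BUB3 held 16.4% in Bulk and 39.4% to 43.1% in them. These are shares of mRNA that depend on the gene lengths used, and they give no protein amounts.

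**Figure D4:**
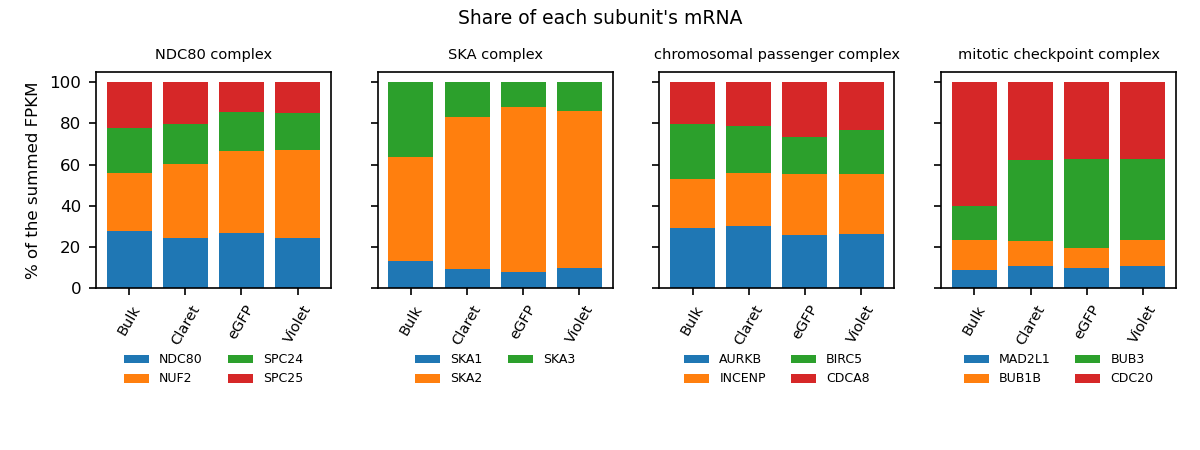
Share of each subunit in the summed FPKM of its complex (y axis, %) in Bulk, Claret, eGFP and Violet (bars), for 4 complexes. The share of SKA2 goes from 50.7% in Bulk to between 74.2% and 80.01%, and that of CDC20 from 60.2% to between 37.2% and 38.0%.

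The 3 slow-cycling libraries were then compared with each other. No member differed 2-fold between any 2 of them, so members were counted by whether the 95% interval of the read ratio lay wholly on 1 side of 0. In eGFP 22 members were wholly below Claret (12.7% of all genes kept) and 0 were wholly above it (11.8%). Against Violet 17 were wholly below (14%) and 2, BUB3 and MIS12, were wholly above (14.2%). The median of the members was -0.23 for eGFP against Claret and -0.20 for eGFP against Violet, beside a median of 0.00 over all genes kept in both. These comparisons share the eGFP library. Between Claret and Violet, 3 members were wholly below in Claret (13.7%) and 9 wholly above (14.3%), and the median was 0.06.

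Below both dye-sorted libraries were 14 members in eGFP, against 4.96% of all genes kept. They were HJURP, CENPW, ZWINT, CENPE, CENPF, AURKB, BIRC5, INCENP, PLK1, TPX2, TTK, BUB1, BUB1B and MKI67. MKI67 differed by -0.43 (-0.58 to -0.29) from Claret and by -0.42 (-0.57 to -0.28) from Violet. BIRC5 differed by -0.71 (-0.94 to -0.50) from Claret and -0.60 (-0.83 to -0.38) from Violet. CENPW, an inner kinetochore protein with a histone fold, had the widest gap: 397, 153, 71 and 110 reads, a difference of -0.99 (-1.44 to -0.60) between eGFP and Claret. CDC20 did not share it, with -0.13 (-0.33 to 0.07) against Claret and -0.01 (-0.22 to 0.20) against Violet. The 5 members called in no library against Bulk had log2 ratios of eGFP to Claret between -0.23 and 0.14.

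The 9 members wholly higher in Claret than in Violet were CENPH, CENPM, CENPN, CENPU, CENPW, ZWINT, SPC25, SKA3 and MAD1L1. CENPH differed most, by 0.69 (0.24 to 1.19), on 106 and 60 reads. The 3 wholly lower in Claret were CENPF at -0.21 (-0.33 to -0.10), CDCA5 at -0.21 (-0.39 to -0.04) and INCENP at -0.17 (-0.33 to -0.01). Of all genes kept, 14.3% were wholly higher in Claret and 13.7% wholly lower, so neither count is read as a result about the members. Some of these calls barely cleared 0, and with a filter at a mean of 10 CPM, which also leaves out CENPH, 6 members in place of 9 were wholly higher. The spread of a member over the slow-cycling libraries had a median of 0.31 on the log2 scale, while the mean ratios to Bulk of the 44 members spanned 3.52.

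**Figure D5:**
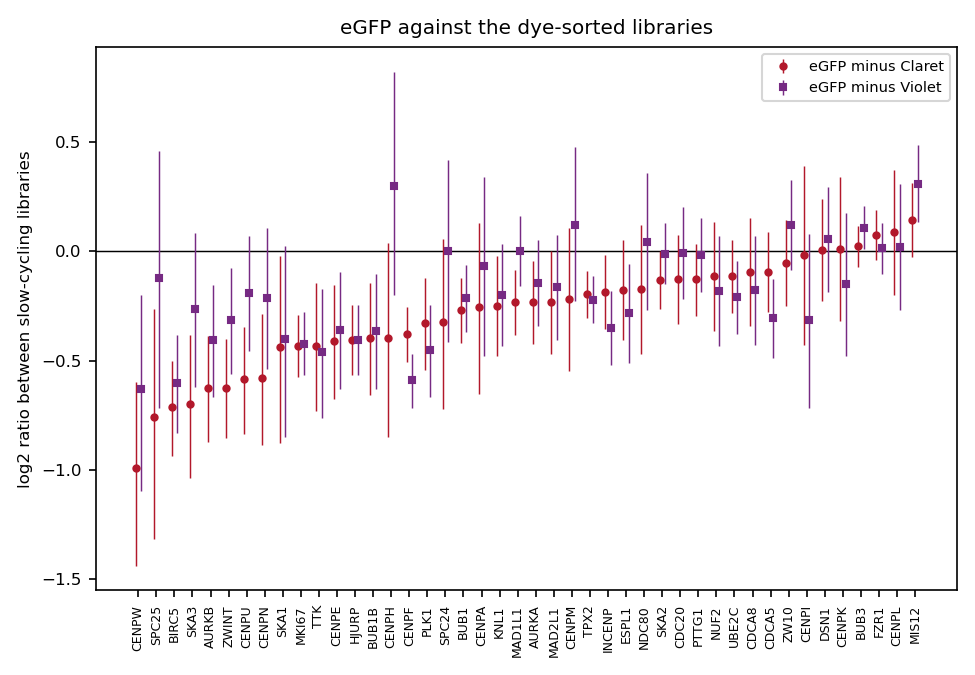
Log2 ratio of eGFP to Claret (circles) and of eGFP to Violet (squares) on the y axis for the 44 members on the x axis, ordered by the first, with exact 95% intervals of the read ratio (counting error only). Of the 44, 38 lie below 0 against Claret and 33 against Violet, and CENPW lies lowest.

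Promoter sequence was examined because most members moved together. The sequence TTTGAA is the core of the cell cycle genes homology region (CHR), to which the MuvB complex binds with B-MYB and FOXM1 in dividing cells or with p130 in resting cells, and CCAAT is the site of the factor NF-Y. RefSeq promoter windows (250 bases before to 50 after the gene start, GRCh38.p14) matched 34 of the 44 members, and motifs were searched on both strands. TTTGAA was found in 20 of 34 members (58.8%) and in 15.2% of all 35116 promoters. CCAAT was found in 23 of 34 (67.6%) and in 34.6% of all promoters. The CHR variant TTTAAA was found in 5 of 34 (14.7%) and in 12.2% of all. Of the 30 matched members called lower in all 3 libraries, 19 held TTTGAA (63.3%), as did 1 of the 4 other matched members, FZR1, at 226 bases before its start. These shares describe letters in a window, and binding was not measured.

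To show how these letters lie, 80 bases are given on the gene's strand for 4 members with low ratios and for 2 that were not called, FZR1 and SKA2. They were chosen with their motif matches known, to show where the letters lie, and do not represent called or uncalled members as a set. Each stretch ends just before the more upstream of the start in RefSeq and the start in the deposited table. Capitals mark TTTGAA and CCAAT or their reverse complements TTCAAA and ATTGG.
CDC20, chr1:43358875-43358954, plus strand: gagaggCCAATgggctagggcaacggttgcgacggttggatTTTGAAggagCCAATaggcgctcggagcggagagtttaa
ESPL1, chr12:53268219-53268298, plus strand: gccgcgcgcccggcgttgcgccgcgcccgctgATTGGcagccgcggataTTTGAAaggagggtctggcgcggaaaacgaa
ZWINT, chr10:56361276-56361355, minus strand: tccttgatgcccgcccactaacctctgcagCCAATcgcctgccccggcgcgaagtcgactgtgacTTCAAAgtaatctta
MKI67, chr10:128126424-128126503, minus strand: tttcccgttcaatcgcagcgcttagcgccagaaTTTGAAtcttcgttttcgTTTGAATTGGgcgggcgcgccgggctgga
FZR1, chr19:3506193-3506272, plus strand: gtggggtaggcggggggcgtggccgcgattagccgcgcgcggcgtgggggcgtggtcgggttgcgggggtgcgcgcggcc
SKA2, chr17:59155270-59155349, minus strand: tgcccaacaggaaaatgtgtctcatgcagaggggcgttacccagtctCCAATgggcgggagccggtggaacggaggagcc
ESPL1, ZWINT and CDC20 each hold 1 TTTGAA in this stretch and MKI67 holds 2, while FZR1 holds neither motif and SKA2 holds CCAAT alone. Neither motif is in the stretches of CENPU, CENPW, NDC80, DSN1, SKA1, SKA3, CENPE, BUB1B and CDCA5 either, all called lower in all 3 libraries. Some of these genes hold a motif elsewhere in the wider window, such as NDC80 with TTTGAA at 3 bases before its start. Among the members for which a stretch was cut, only HJURP has TTTGAA in it apart from CDC20, ESPL1, ZWINT and MKI67. A stretch leaves out matches nearer the RefSeq start, such as TTTGAA at 10 bases before it in INCENP and 23 in CDCA8 and BUB1B. No stretch was cut where the table's start lay far upstream of the RefSeq start. PLK1, with TTTGAA at 29 bases before its RefSeq start, is 1 such gene.

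A list of 11 genes of MuvB, B-MYB, FOXM1, p107, p130 and partners was read in the same libraries. Of these, 6 were called lower in each slow-cycling library, where 6.72%, 7.64% and 6.92% of all genes kept were. A single gene was called higher in each, no larger a share than that of all genes kept (11.3%, 12% and 11.7%). MYBL2, which encodes B-MYB, had 3494, 393, 234 and 342 reads, with ratios of -3.25, -3.90 and -3.34. RBL2, which encodes p130, had 542, 1299, 1251 and 1290 reads, with ratios of 1.15, 1.19 and 1.25. MYBL2 and RBL2 are named as the lowest and the highest of the list by mean ratio. RBL1, which encodes p107, was called lower in each library, at -1.97, -1.98 and -1.98. Also called lower in each were FOXM1, TFDP1 and the MuvB subunits LIN9 (-1.47, -1.77 and -1.36) and LIN54 (-1.09, -1.38 and -1.23).

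Other genes of the same processes were read as 6 further lists, none of which had a gene called higher than Bulk. Of all genes kept, 11.3%, 12% and 11.7% were called higher in Claret, eGFP and Violet, and 6.72%, 7.64% and 6.92% lower. The genes named first and last in a list are those with its lowest and highest mean ratio over the 3 libraries, and in a single library others can lie beyond them. Of 12 other centromere proteins, 8 were called lower in Claret and eGFP and 7 in Violet, from CENPO at -2.38, -2.55 and -2.15 to ITGB3BP (CENP-R) at 0.03, 0.09 and -0.15. Of 5 other outer kinetochore and corona proteins, 4 were called in Claret and 3 in eGFP and Violet, from SPDL1 at -1.68, -1.93 and -1.67 to NSL1, a subunit of the MIS12 complex, at -0.60, -0.53 and -0.41. Of 8 other regulators of checkpoint and anaphase, 7 were called in each library. The lowest mean over the 3 libraries was that of SGO1, the protector of centromeric cohesin, at -2.30, -2.66 and -2.07, and MAD2L1BP, which helps to switch the checkpoint off, was at -0.19, -0.23 and -0.35.

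Of the 14 core subunits of the APC/C, 1 was called lower in each library, a share near that of all genes kept (6.72%, 7.64% and 6.92%), so the count is no result about this list. The gene called was ANAPC15, on 94, 37, 41 and 44 reads. Their median was -0.35, -0.29 and -0.41, and ANAPC16 had the highest mean, at 0.39, 0.27 and 0.25. All 8 condensin subunits, which compact mitotic chromosomes, were called in each library, from NCAPH at -2.95, -3.51 and -3.15 to NCAPH2 at -1.48, -1.58 and -1.60. Of 12 genes of cohesin and its regulators, 5 were called in eGFP and 3 in each of the others. The acetyltransferase ESCO2 was lowest at -3.12, -3.50 and -2.89, and its relative ESCO1 was highest at 0.33, 0.25 and 0.30. The lists differ in size and level, and no test compared them.

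Some counts could include reads of other genes, because how reads matching several genes and strands were handled is not given in the sources used here. In 11 members over 10% of the exon bases overlapped an exon of another gene or over 10% of the 31-base words of their transcripts occurred in another gene. CENPN had the largest overlap, with 22.8% of its exon bases inside exons of other genes, among them CMC2 on the opposite strand. PLK1 had 12.5% and CENPU 11.7%, likewise on the opposite strand. AURKA shared 16.3% of its words, SPC24 13.9%, SPC25 13.6% and SKA1 11.9%. CDC20 shared 20.3% of its words, the largest part with its pseudogene CDC20P1, and SKA2 shared 10.7% with genes led by SKA2P1. BUB1B overlapped the read-through gene BUB1B-PAK6 over 10.2% of its exon bases. MIS12 shared 10.7% of its words, with DERL2 in first place. The counts of these 11 members are uncertain. Of the 25 members whose span overlaps no other gene of the table, 23 were called lower in Claret, 23 in eGFP and 24 in Violet. Shared words were not part of that choice, and the 25 still hold CDC20, AURKA and SKA1.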

How the data were processed

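Read counts per gene (whole numbers, not normalized) and FPKM were deposited by the authors for 4 libraries. The submitters' processing notes name HISAT2 2.0.5 and featureCounts 1.5.0-p3, and their settings are not given in the sources used here. The deposited FPKM follow from the counts, the gene length and library totals of 96.9% to 103.5% of the summed reads. Gene coordinates are GRCh38, and those of all 44 members equal GENCODE 29. The gene length in the table is stated by the authors without a definition. For the 44 members it equals the merged exon bases of the gene in GENCODE 29. It scales every FPKM value, so FPKM levels set between genes also depend on which exons are annotated.

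Genes with a mean of at least 1 CPM were kept (14585, all 44 members among them). Scaling factors came from the TMM method of edgeR 4.0.16 (R 4.3.3), and log2 ratios used a prior count of 2. With 1 library a group no test over samples was possible, so a gene was called at 2-fold, and intervals are exact (Clopper-Pearson, or conditional for gene pairs; SciPy 1.17.1) at 95%. A count of 3, the limit that 0 reads allow, is 0.177 to 0.193 CPM. Calls and intervals were tested on simulated data that held counting error alone, so that test cannot show how they fare with variation between samples. No molecular identifiers are named in the labels, so intervals cover counting error only.

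The members and lists were chosen with earlier results of these data known. Named by rule were the lowest and highest member of each role, members not called in all 3 libraries, members of the 10 pairs, MKI67, and the lowest and highest gene of each other list. Other names, the 4 complexes, the 10% limit on shared sequence and the printed promoter stretches were chosen after values were seen. Alternatives were library size, DESeq2 1.42.0 size factors, other filters, a prior count of 0.5, log2(FPKM + 1), a call that also needs its interval to exclude 0, members without overlapping genes and groups from the treatment field. Promoter sequences are RefSeq's (GRCh38.p14). A further leukocyte marker is not reported here.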

Additional observations from a re-analysis of the deposited data

How the results depend on the processing

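No paired analysis was possible because each group holds 1 library. Under library-size scaling, DESeq2 size factors, no filter, a filter at 10 CPM, a prior count of 0.5 and log2(FPKM + 1), the members called lower numbered 37 or 38 in Claret and 38 or 39 in both eGFP and Violet, and also requiring the interval to exclude 0 changed none of the main counts. The same 38 genes were called in all 3 libraries except that ZW10 was lost with the 10 CPM filter, which also left out CENPH, and on log2(FPKM + 1). That scale, which compresses low values, moved the medians to -1.95 in Claret and -1.998 in Violet. Without members that overlap another gene, 25 genes remain and 23, 23 and 24 were called lower in Claret, eGFP and Violet. The 25 still include CDC20, AURKA and SKA1, which share sequence with other genes.

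With groups from the treatment field, 0 members were called lower in any of the 3 groups. The medians against Bulk became 2.27 (Claret), 0.061 (eGFP) and -0.20 (Violet), and between the slow-cycling groups -2.22 for eGFP against Claret, 0.23 for eGFP against Violet and 2.48 for Claret against Violet. The column names of the deposited tables go with the titles, not with the treatment field.

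The median of eGFP against Claret and against Violet stayed below 0 under each of the 6 scaling, filter, prior and FPKM settings. With library-size scaling 1 member, in place of 2, was wholly above Violet in eGFP. For Claret against Violet, the 9 members wholly above became 7 with library size, 10 with DESeq2 size factors and 6 with the 10 CPM filter, and the 3 wholly below became 2 with DESeq2 size factors. Depth limits CENPH (60 to 150 reads) and SPC25 (49 to 461 reads) most.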
